A study of Mus musculus with 4 samples.

Results

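The 10 genes described here were Ano1, Slc26a7, Kcnd3, Gria1, Kcnk2, Scn1a, Adcy2, Pde3a, Rgs4 and Ndrg2, which encode ion channels and transporters, enzymes of cyclic-nucleotide turnover and 2 further signalling proteins. They were selected on values measured in these same libraries, as leading or higher genes of the thymic epithelial cells of mutant thymus that carried Pax1 and Pax9 transcripts but few Epcam transcripts, the cells that resemble the age-associated thymic epithelial cells of the second kind (aaTEC2). All 10 symbols were found among the 32285 features of each of the 4 libraries. Because of this choice, levels across cell types and across genotypes within the epithelium are given as a description, with no test. For 7 of the 10 genes the selecting pattern was seen in both mutant libraries, whereas Kcnk2 and Scn1a were lower in the aaTEC2-like cells than in the other epithelial cells, and Rgs4 was slightly lower, so the genes are called here by their names and not as genes of that cell type.

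The study as a whole concerned age-related changes of the thymic stroma. The libraries described here come from its part on loss of Foxn1, the transcription factor that directs thymic epithelial differentiation. In that part CD45-negative thymic cells were profiled with droplet-based 3′ single-cell RNA sequencing. The 2 control libraries (WT), called mock in the labels, came from wild-type mice, and the 2 mutant libraries (Z/Z) from mice carrying LacZ in both copies of Foxn1, which lowers its expression without removing it. All mice were C57BL/6, 6 months old and untreated, and several thymi were digested together, depleted of CD45-positive cells on beads and sorted. The sex was given as male in one label and as female in the protocol, no other agent or allele was named, and Foxn1 lay at 90.5 and 123 CPM (the UMIs of a gene scaled to the usual common total of all UMIs summed over the cells) in the epithelial cells of WT 1 and WT 2 and at 50.8 and 68.5 CPM in those of Z/Z 1 and Z/Z 2.

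The libraries held between 1192 and 5558 called cells and 8468086 to 50705511 UMIs, with sequencing saturation between 65.2% and 95.2%. After filtering, 9846 cells remained, of which WT 2 gave only 456. Of the called barcodes, 202 were shared by WT 1 and WT 2 (7.4% and 16.9% of their barcodes) and 249 by Z/Z 1 and Z/Z 2 (4.48% and 5.53%), against at most 6 between a WT and a Z/Z library, so tested results are also given without those cells. By marker genes, 4161 cells were epithelial, 2671 fibroblasts, 1500 endothelial and 874 mural (pericytes and vascular smooth muscle). The aaTEC2-like cells numbered 945, of which WT 1 gave 13 (0.892% of its kept cells), WT 2 gave 0 of 456, Z/Z 1 gave 550 (12.3%) and Z/Z 2 gave 382 (11%). They formed sub-clusters of 762 and 183 cells, in which Pax1 was detected in 64.4% and 54.6% of cells, Pax9 in 71.3% and 65.6%, Epcam in 12.2% and 10.4%, and Pdgfra in 0.8% and 1.6%. Other epithelial classes named below are aaTEC1 (Cldn3, Plet1, Krt5 and Krt8), mTEC1 (medullary cells with Ccl21a and Krt14), cTEC (cortical cells with Prss16 and Psmb11) and Aire-stage medullary cells. A further 155 cells, all from Z/Z, formed an unnamed cluster led by Ctnna2 and Luzp2 with S100b among its 10 leading genes, called the S100b-led cluster. In it Pax1 was detected in 58.7% of cells, Pax9 in 74.8%, Epcam in 21.9%, Vim in 78.7% and Pdgfra in 1.3%. These shares lay within the limits set for aaTEC2-like clusters, but its best-scoring marker list was that of Schwann cells. It was not counted as epithelial and is on neither side of the ratios to other epithelial cells. Cell groups were ranked by level where both Z/Z libraries held at least 20 of their cells and they were not set aside for low UMIs, which left 23 groups, and smaller groups are mentioned where their level was high. Neither the 10 genes nor the marker genes were used to build the clusters.

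As background, ANO1 is a calcium-activated chloride channel of smooth muscle and secretory epithelia, and SLC26A7 exchanges or conducts anions in stomach, kidney and thyroid epithelium. KCND3 (Kv4.3) carries a fast inactivating potassium current, KCNK2 (TREK-1) is a background potassium channel opened by stretch and lipids, SCN1A (Nav1.1) is the pore of a neuronal sodium channel and GRIA1 is a subunit of the AMPA glutamate receptor. ADCY2 makes cyclic AMP, and PDE3A, a phosphodiesterase that cyclic GMP inhibits, breaks it down in vascular smooth muscle and platelets. RGS4 speeds the switching off of G proteins, and NDRG2 is a stress-linked protein best known from astrocytes.

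Most of the genes are long loci. On GRCm38, 8 of the 10 spanned more than 100 kb, from Slc26a7 (chr4:14502430-14621805, minus strand, 119 kb) to Adcy2 (chr13:68620043-68999541, minus strand, 379 kb), compared with 8.73% of all 32135 annotated genes and a median length of 12.3 kb. Exons made up 1.11% of the Adcy2 locus and 6.55% of that of Scn1a (chr2:66270778-66440840, minus strand), so intronic reads, which the counts include, could contribute to these genes. The remaining long loci were Ano1 (chr7:144588549-144751974, minus), Kcnd3 (chr3:105452330-105674002, plus), Gria1 (chr11:57011387-57330244, plus), Kcnk2 (chr1:189207930-189402273, minus) and Pde3a (chr6:141249269-141507448, plus). Rgs4 (chr1:169741477-169747642, minus) and Ndrg2 (chr14:51905271-51914158, minus) were short, at 6.17 kb and 8.89 kb. Counted genes on the same strand overlap Kcnd3 (Gm43847) and Kcnk2 (2900042K21Rik), so reads of these loci may be divided with those genes. Counted genes on the opposite strand overlap Ano1, Kcnd3, Adcy2, Pde3a, Kcnk2 and Scn1a.

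Sequence upstream of the transcription start was found in the RefSeq promoter table (GRCm38.p6) for 7 of the 10 genes, in 12 windows of 250 bases. The windows of Ano1 (chr7:144738574-144738823, minus strand), Kcnd3 (chr3:105451640-105451889, plus) and Adcy2 (chr13:68999542-68999791, minus) are shown because these genes had their highest level among the ranked groups in aaTEC2-like cells, and that of Rgs4 (chr1:169747643-169747892, minus), which did not, because it alone held the short cyclic AMP response element TGACG. The Ano1 window lies inside the annotated locus given above, since RefSeq places a start there. Capitals mark that motif on either strand, and each sequence reads 5′ to 3′ towards the start site.
Ano1: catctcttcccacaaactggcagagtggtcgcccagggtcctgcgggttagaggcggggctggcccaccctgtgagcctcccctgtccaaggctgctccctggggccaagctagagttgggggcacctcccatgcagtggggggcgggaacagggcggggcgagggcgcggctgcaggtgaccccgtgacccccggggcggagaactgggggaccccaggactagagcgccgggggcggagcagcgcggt
Kcnd3: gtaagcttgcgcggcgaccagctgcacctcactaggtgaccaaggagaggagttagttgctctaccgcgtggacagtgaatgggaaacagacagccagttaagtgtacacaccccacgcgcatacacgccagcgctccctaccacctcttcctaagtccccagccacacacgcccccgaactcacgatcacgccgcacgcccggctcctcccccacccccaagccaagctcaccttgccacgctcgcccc
Adcy2: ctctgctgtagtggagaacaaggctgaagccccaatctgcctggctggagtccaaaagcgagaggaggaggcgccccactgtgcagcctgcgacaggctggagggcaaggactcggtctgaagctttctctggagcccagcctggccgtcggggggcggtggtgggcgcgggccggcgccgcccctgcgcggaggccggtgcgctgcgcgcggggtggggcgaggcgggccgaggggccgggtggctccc
Rgs4: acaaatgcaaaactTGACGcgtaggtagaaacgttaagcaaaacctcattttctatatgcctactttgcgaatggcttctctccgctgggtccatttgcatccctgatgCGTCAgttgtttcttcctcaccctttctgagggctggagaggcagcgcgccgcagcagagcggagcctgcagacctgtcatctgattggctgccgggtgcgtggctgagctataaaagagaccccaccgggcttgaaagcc
The Rgs4 window held TGACG at 2 places, the nearer 141 bases from the start, whereas 17.8% of all 32851 windows held it at least once. The complete palindrome TGACGTCA was in none of the 12 windows, against 1.55% of all windows. GACGC, the core bound by FOXN1, was in 3 of the 12 (both strands searched; its letters overlap TGACG where TGACGC is read), namely 2 windows of Kcnk2 and that of Rgs4, against 22.6% of all windows. Guanine and cytosine made up 72% of the Ano1 window, 73.2% of that of Adcy2 and 62.8% of that of Kcnd3, against a median of 52.4% over all windows. A match describes these letters in this window only.

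**Figure D1:**
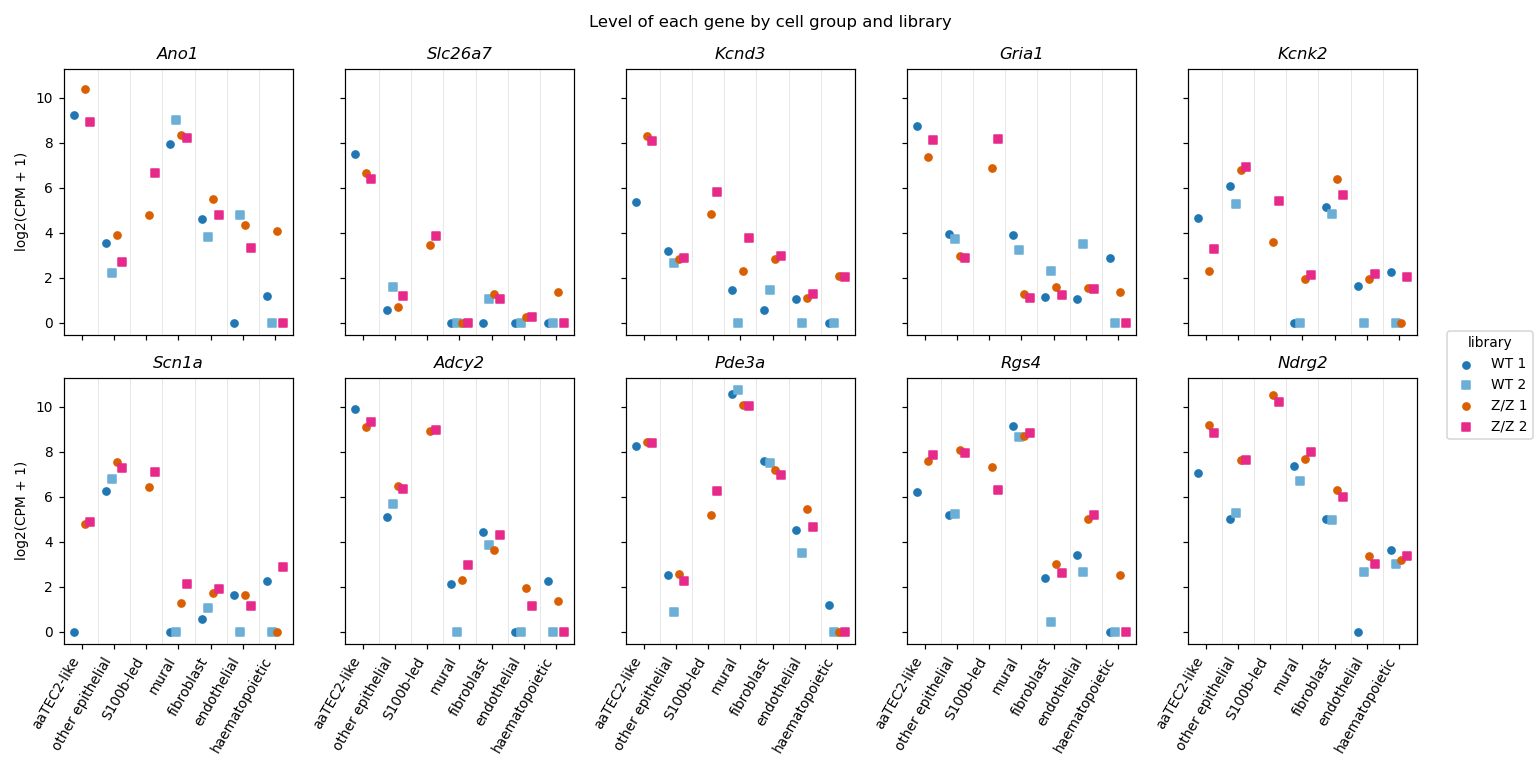
Level of each of the 10 genes, as log2(CPM + 1) of UMIs summed over the cells of a group, with 1 point per library (circles for replicate 1, squares for replicate 2; WT blue, Z/Z orange and pink). Among the groups plotted, Slc26a7, Kcnd3 and Adcy2 are highest in aaTEC2-like cells, Pde3a in mural cells, Ndrg2 in the S100b-led cluster, and Kcnk2 and Scn1a in the other epithelial cells; WT 2 has no aaTEC2-like cells and neither WT library has cells of the S100b-led cluster.

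Ano1, the chloride channel gene, had 1317 CPM in the aaTEC2-like cells of Z/Z 1 and 477 CPM in those of Z/Z 2, against 13.8 and 5.5 CPM in the other epithelial cells, a ratio of 95.6 and 86.7. Both libraries were therefore high, but Z/Z 1 was well above Z/Z 2, the widest gap between mutant libraries among the 7 genes that were higher. After each cell was thinned to 2000 UMIs, Ano1 was detected in 56.6% and 33.2% of aaTEC2-like cells, compared with 1.19% and 0.308% of endothelial cells, taken as the cell type that should lack the gene (median UMIs per cell were equalised by the thinning). Thinned shares were 45.6% and 57.7% in an unnamed mural cluster led by Tmtc1 and Cysltr2 and 41.6% and 50% in pericytes. In Z/Z 2 both were above the share of aaTEC2-like cells. Mural cells followed among the ranked lineages, with 319 and 292 CPM in Z/Z and 245 and 519 CPM in WT, and among mural classes Ano1 was near 400 CPM in both an unnamed cluster led by Tmtc1 and Cysltr2 (400 and 469 CPM) and the pericytes (418 and 398 CPM), whose spreads overlapped. The few mesothelial cells were at a like level, with 277 CPM in the 4 cells of Z/Z 1 and 404 CPM in the 27 of Z/Z 2, and a mural cluster of 18 and 5 cells had 315 and 904 CPM. Of all Ano1 UMIs in kept cells, 70.4% and 51.3% lay in aaTEC2-like cells of Z/Z 1 and Z/Z 2.

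Slc26a7, the anion transporter gene, was the most restricted of the set. It had 101 and 84 CPM in aaTEC2-like cells of the Z/Z libraries and 0.642 and 1.26 CPM in the other epithelial cells, and 88.9% and 85.3% of its UMIs fell in aaTEC2-like cells. No UMI was seen in 465 and 326 mural cells of Z/Z, which allows a share of up to 0.645% and 0.92% of cells with a UMI. The next cell group was the S100b-led cluster, with 10.1 and 13.7 CPM, and no other ranked group exceeded 4.27 CPM in either Z/Z library. The cells set aside for low UMIs had 1 and 0 UMIs, or 11.2 and 0 CPM.

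Kcnd3, the Kv4.3 potassium channel gene, had 309 and 272 CPM in aaTEC2-like cells against 6.13 and 6.32 CPM in the other epithelial cells, a ratio of 50.4 and 43. The Z/Z libraries were close to each other, and the other ranked groups had at most 59.7 CPM. The S100b-led cluster had 27.3 and 54.8 CPM and the pericytes 14 and 59.7 CPM. Among groups too small to rank, mesothelial cells had 189 and 121 CPM (15 and 45 UMIs in 4 and 27 cells) and tuft cells 82.4 and 97.7 CPM (7 and 22 cells). Thinned cells held a Kcnd3 UMI in 35% and 31.1% of aaTEC2-like cells and in 0.149% and 0.154% of endothelial cells.

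Gria1, the glutamate receptor subunit gene, was shared between aaTEC2-like cells (162 and 279 CPM) and the S100b-led cluster (117 and 288 CPM), whose levels overlapped across the Z/Z libraries. The other epithelial cells had 6.94 and 6.26 CPM. Medullary cells of the mTEC1 class followed with 27.5 and 34 CPM, and endothelial cells had 1.93 and 1.88 CPM.

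Adcy2, the adenylyl cyclase gene, had 549 and 636 CPM in aaTEC2-like cells, and the S100b-led cluster lay close below it with 484 and 503 CPM. The separation from the other epithelial cells was smaller than for the channels, with 89.5 and 80.4 CPM there and a ratio of 6.13 and 7.91. Adcy2 was also carried by an unnamed cluster led by Gm26917 (338 and 336 CPM) and by the mTEC1 class (246 and 303 CPM). The neuro class, with only 7 and 5 cells in Z/Z, had 706 and 765 CPM, above the aaTEC2-like cells.

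Pde3a, the phosphodiesterase gene, was a mural gene first. Mural cells had 1083 and 1036 CPM in Z/Z and 1507 and 1726 CPM in WT, aaTEC2-like cells 340 and 329 CPM, and the other epithelial cells 5.02 and 3.73 CPM. Among the 23 ranked groups the aaTEC2-like cells had rank 4, after the 3 larger mural classes and ahead of the capsular fibroblasts (151 and 179 CPM in Z/Z).

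Ndrg2 was highest in the S100b-led cluster, with 1481 and 1168 CPM, followed by aaTEC2-like cells (591 and 456 CPM) and the aaTEC1 class (385 and 461 CPM), which overlapped. The other epithelial cells together had 195 and 198 CPM, so the ratio was 3.02 and 2.3.

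Kcnk2, Scn1a and Rgs4 did not follow the pattern for which the set was assembled. Kcnk2, the stretch-sensitive potassium channel gene, had 3.98 and 8.8 CPM in aaTEC2-like cells and 108 and 120 CPM in the other epithelial cells, a ratio of 0.0368 and 0.0735. Scn1a, the sodium channel gene, had 26.7 and 28.1 CPM against 184 and 152 CPM, a ratio of 0.145 and 0.185. Both were highest in epithelial clusters that no marker list named. One, led by Kctd16 and Trp63, had 293 and 305 CPM of Kcnk2 and 503 and 651 CPM of Scn1a. One with Fst and Kcnk2 itself among its leading genes had 261 and 324 CPM of Kcnk2 and 378 and 337 CPM of Scn1a. Another, led by Gpc5, overlapped the latter for Scn1a, with 379 and 329 CPM. Cortical cells (cTEC) also carried both, at 194 and 256 CPM and at 312 and 251 CPM.

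Rgs4, the G protein regulator gene, had 190 and 229 CPM in aaTEC2-like cells and 272 and 244 CPM in the other epithelial cells, a ratio of 0.699 and 0.938 that turned to 1.14 (the Z/Z libraries together) when every cell was thinned to 2000 UMIs. Pericytes had the most, with 591 and 719 CPM, followed by the aaTEC1 class (543 and 548 CPM) and the mTEC1 class (552 and 528 CPM), which overlapped.

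Across all genes with at least 200 UMIs in epithelial cells, the median log2 ratio of aaTEC2-like to other epithelial cells was -0.31 for the first and -0.26 for the second Z/Z library. The 13 aaTEC2-like cells of WT 1 held few UMIs of each gene (73 of Ano1, 22 of Slc26a7, 5 of Kcnd3, 52 of Gria1, 115 of Adcy2, 37 of Pde3a and 16 of Ndrg2). All 7 lay above the other epithelial cells of that library, with ratios from 4.18 for Ndrg2 and 4.94 for Kcnd3 to 366 for Slc26a7. Rgs4 (9 UMIs) was also above them there, with a ratio of 2.08, and Kcnk2 (3 UMIs) below, with 0.371. The genes were chosen on these same libraries, so these ratios are descriptions. Empty-droplet RNA was estimated at 25.6% of their UMIs. Scn1a had no UMI in these 13 cells, which allows up to 23.1% of cells with a UMI.

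**Figure D2:**
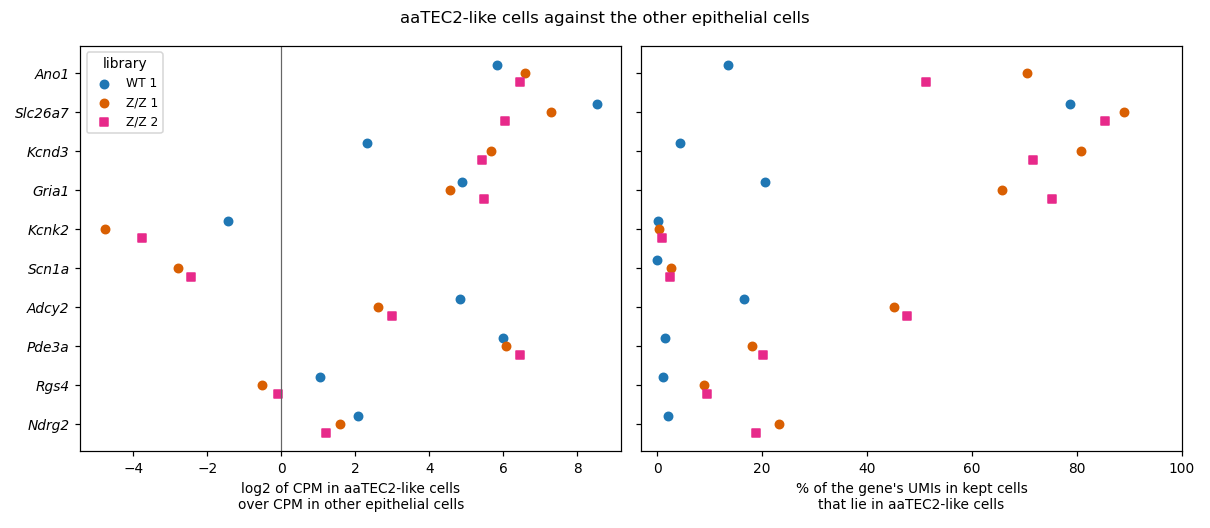
Left, log2 of the ratio of CPM in aaTEC2-like cells to CPM in the other epithelial cells; right, the percent of each gene's UMIs over all kept cells that lay in aaTEC2-like cells; 1 point per library with aaTEC2-like cells. In Z/Z, 7 genes lie to the right of 0 and Kcnk2, Scn1a and Rgs4 to the left; Scn1a of WT 1 has no point on the left because it had 0 UMIs there.

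Within the aaTEC2-like cells, the smaller sub-cluster, led by Ldb2 and Adam12, was the richer in most of these genes. Kcnd3 had 628 and 376 CPM in it against 245 and 249 CPM in the larger sub-cluster, which was led by Adamts4 and Thbd, Adcy2 838 and 1001 against 491 and 556 CPM, Slc26a7 162 and 129 against 88.3 and 74 CPM, and Scn1a 99.2 and 75.7 against 12.1 and 17.7 CPM. Rgs4 went the other way, with 130 and 103 CPM against 202 and 256 CPM. These sub-clusters were built without the 10 genes but on transcripts of the same cells, so the differences are descriptions.

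Thinned aaTEC2-like cells held on average 2.98 (Z/Z 1) and 2.76 (Z/Z 2) of the 10 genes, and 61.7% and 54.8% of them held 3 or more. The other epithelial cells held 0.989 and 0.974, mural cells 1.89 and 2.06, the S100b-led cluster 1.83 and 1.9, and fibroblasts 0.61 and 0.502. Endothelial cells held 0.0936 and 0.0894. Within aaTEC2-like cells the 45 gene pairs were almost uncorrelated from cell to cell, with Pearson's r between -0.11 and 0.15 and a median of 0.02 in Z/Z 1, in counts too sparse to read a weak correlation from.

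**Figure D3:**
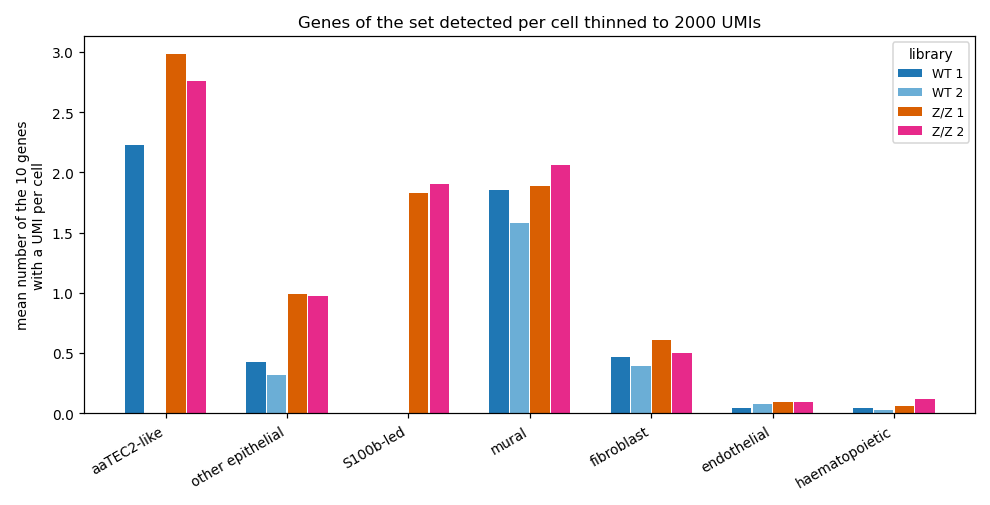
Mean number of the 10 genes with at least 1 UMI per cell, after each cell was thinned to 2000 UMIs, by cell group and library (bars). The aaTEC2-like cells of the Z/Z libraries hold 2.98 and 2.76 genes, mural cells between 1.58 and 2.06, and endothelial and haematopoietic cells at most 0.12; there is no bar where a library had no such cells.

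The aaTEC2-like cells also carried transcripts of mural and fibroblast markers. Of 8 mural markers, 7 had UMIs in Z/Z 1 and 8 in Z/Z 2, with a summed level of 1818 and 1996 CPM against 18822 and 22047 CPM in mural cells. Acta2, the smooth muscle actin, reached 0.678% and 0.672% of its mural level and the pericyte channel gene Kcnj8 0% and 2.12%, whereas Notch3 reached 53% and 57.6% and Tagln 21.9% and 18.1%. By the same measure Ano1 was at 412% and 163% of its mural level and Pde3a at 31.4% and 31.7%. All 5 fibroblast markers had UMIs, with 807 and 1194 CPM in sum against 15244 and 16007 CPM in fibroblasts, and reached 31.3% and 33.3% of the fibroblast level for Col3a1, 10.1% and 15.6% for Lum, 8.76% and 8.74% for Col1a1 and 3.45% and 5.17% for Dcn. Pdgfra was at 0.26% and 0.628%, but few Pdgfra transcripts were a condition for naming these cells. RNA of empty droplets was estimated at 9.18% and 12.1% of UMIs in the aaTEC2-like cells, which held a median of 5993.5 and 5711 UMIs against 7384 and 8151.5 in the other epithelial cells. The part of these markers, of free RNA and of depth in the levels was not tested.

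Over 73 sums of cell type and library and 14853 genes, the genes whose log2(CPM + 1) followed each of the 10 most closely were tabulated (Pearson's r; sums of 1 library share its depth and its free RNA). Ano1 ran with Gucy1a1, a subunit of the nitric oxide receptor (r = 0.8), Itga7 and Pakap. Slc26a7 (r = 0.78), Kcnd3 (r = 0.61) and Gria1 (r = 0.72) shared Prok2, a secreted prokineticin. Adcy2 ran with Musk (r = 0.79), Pde3a with Sod3 and Pde1a (r = 0.89 each), Rgs4 with Pdlim3 (r = 0.79) and Ndrg2 with S1pr3 (r = 0.81). Kcnk2 ran with Grm8 (r = 0.81) and with Scn1a (r = 0.78), and Scn1a with Tns4 (r = 0.91) behind the unnamed transcripts CJ186046Rik and AI646519 (r = 0.92 each). Among the 10 genes themselves, the closest pairs were Kcnk2 with Scn1a (r = 0.78) and Slc26a7 with Gria1 (r = 0.7).

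Of 128 further genes of the same families, 106 had UMIs in aaTEC2-like cells, and 26 of the 128 (20.3%) were higher there than in the other epithelial cells in both Z/Z libraries and 78 lower. Over all 25586 genes with UMIs, 17.4% were higher and 52.1% lower, so the families as a whole stood near the background. Phosphodiesterases had the most higher members, 10 of 23, among them Pde1a (155 and 137 CPM against 6.3 and 2.91 CPM) and Pde10a (146 and 167 against 59.1 and 40.1 CPM), while the most abundant, Pde4b, had 1220 and 1172 against 1384 and 1306 CPM. Prkg1, the cyclic GMP-dependent kinase, had 2323 and 1915 CPM against 191 and 154 CPM, and mural cells had 4165 and 3797 CPM. Ano6, a scramblase and channel of the anoctamin family, had 1122 and 980 against 219 and 192 CPM, and Rgs2 156 and 121 against 47.3 and 44.6 CPM.

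The partner genes of the channels were not raised with them. None of 8 genes for Kv4 channels and their auxiliary subunits was higher in both Z/Z libraries and 7 were lower, and none of 13 two-pore potassium channel genes was higher, with Kcnk1 at 25.4 and 30.8 against 197 and 186 CPM. None of 3 other AMPA receptor subunit genes was higher, with Gria3 at 112 and 115 against 213 and 186 CPM. Of 13 further sodium channel genes, 8 were lower in both Z/Z libraries. In the adenylyl cyclase family no other member came near Adcy2 in UMIs within aaTEC2-like cells, Adcy9 having 127 UMIs there in the Z/Z libraries together.

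In the epithelial cells other than aaTEC2-like, several of the genes lay at different levels in the genotypes. Rgs4 had 35.3 and 36.6 CPM in WT and 272 and 244 CPM in Z/Z, and Ndrg2 31.3 and 37.4 CPM against 195 and 198 CPM. Adcy2 (33 and 50.9 against 89.5 and 80.4 CPM), Kcnk2 (66.1 and 37.4 against 108 and 120 CPM) and Scn1a (74.6 and 111 against 184 and 152 CPM) were also higher in both Z/Z libraries, and Gria1 was lower (14.5 and 12.3 against 6.94 and 6.26 CPM). The mixture of epithelial classes differed between genotypes, Aire-stage cells making up 254 of 544 and 45 of 105 such cells in WT and 37 of 1407 and 62 of 1160 in Z/Z. Within single classes the direction was not always that of the whole. In the cluster with Fst and Kcnk2 among its leading genes, Scn1a had 600 and 853 CPM in WT and 378 and 337 CPM in Z/Z. Rgs4 in the mTEC1 class was 116 and 264 CPM in WT and 552 and 528 CPM in Z/Z. WT 2 held 9 and 4 cells of these classes. Empty-droplet RNA was estimated at 15% and 9.82% of UMIs in these cells of WT and 6.34% and 7.31% in Z/Z, and the part of class mixture and free RNA in the genotype values was not tested.

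Genotypes were compared by test in the 3 lineages outside the epithelium. This is not the contrast on which the genes were chosen, although that choice set the aaTEC2-like cells against all other cells, these lineages included. UMIs were summed per library, and edgeR's quasi-likelihood test was run over all genes with Benjamini-Hochberg adjustment. The labels do not say whether the libraries of a genotype came from separate mice, so p-values measure the spread between libraries.

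In fibroblasts, 3 of the 9 genes that could be tested rose in Z/Z and none fell, against 3.08% of 13856 genes called in either direction, 1.78% called higher and 1.31% called lower. Ndrg2 had 31.7 and 30.3 CPM in WT 1 and WT 2 and 78.8 and 63.3 CPM in Z/Z 1 and Z/Z 2, higher by 1.26 ± 0.18 on the log2 scale (± is the SE; adjusted p = 0.00661, edgeR, 2 libraries per group). Kcnk2 had 33.9 and 27.5 CPM in WT and 83.5 and 50.8 CPM in Z/Z (log2 fold change 1.18 ± 0.24, adjusted p = 0.0315, edgeR). For both genes Z/Z 1 stood above Z/Z 2. Kcnd3 was rare, with 0.483 and 1.76 CPM in WT (4 and 5 UMIs) and 6.05 and 6.88 CPM in Z/Z (72 and 51 UMIs), higher by 2.92 ± 0.57 on the log2 scale (adjusted p = 0.0262, edgeR).

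The other fibroblast values did not pass. Ano1 had 23.8 and 13 CPM in WT and 44.1 and 27.1 CPM in Z/Z (log2 fold change 0.96 ± 0.30, adjusted p = 0.125, edgeR), and passed in 6 of 18 other settings. Pde3a was lower in both Z/Z libraries (191 and 180 against 143 and 125 CPM; log2 fold change -0.41 ± 0.15, adjusted p = 0.2, edgeR). Scn1a (log2 fold change 1.96) and Rgs4 (1.21) were at most 7.15 CPM in any library. Empty-droplet RNA was estimated at 2.96% and 5.14% of fibroblast UMIs in WT and 3.15% and 3.71% in Z/Z. In empty droplets Scn1a had 12.7 and 9.97 CPM in WT and 76.2 and 58.5 CPM in Z/Z. Rgs4 had 17.8 and 11.7 CPM there in WT and 132 and 97.2 CPM in Z/Z. The part of free RNA in these 2 fold changes was not separately tested. Gria1 (-0.31) and Adcy2 (-0.18) overlapped between groups, and Slc26a7 was too rare to test, at 0, 1.06, 1.43 and 1.08 CPM. The median log2 fold change of the 9 genes was 1.18, and that of all genes tested 0.01. The low-count filter asks for enough UMIs only in as many libraries as 1 group holds. Kcnd3, Scn1a and Rgs4 had few UMIs in at least 1 WT library and could enter the test through Z/Z. Their direction was thus partly set by the filter, and the count of genes that rose and the median are given as description. Without the cells of shared barcodes only Ndrg2 passed (adjusted p = 0.0276, edgeR), Kcnk2 being at 0.119 and Kcnd3 at 0.0967, and without Z/Z 1, or without Z/Z 2, no gene of all those tested passed.

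**Figure D4:**
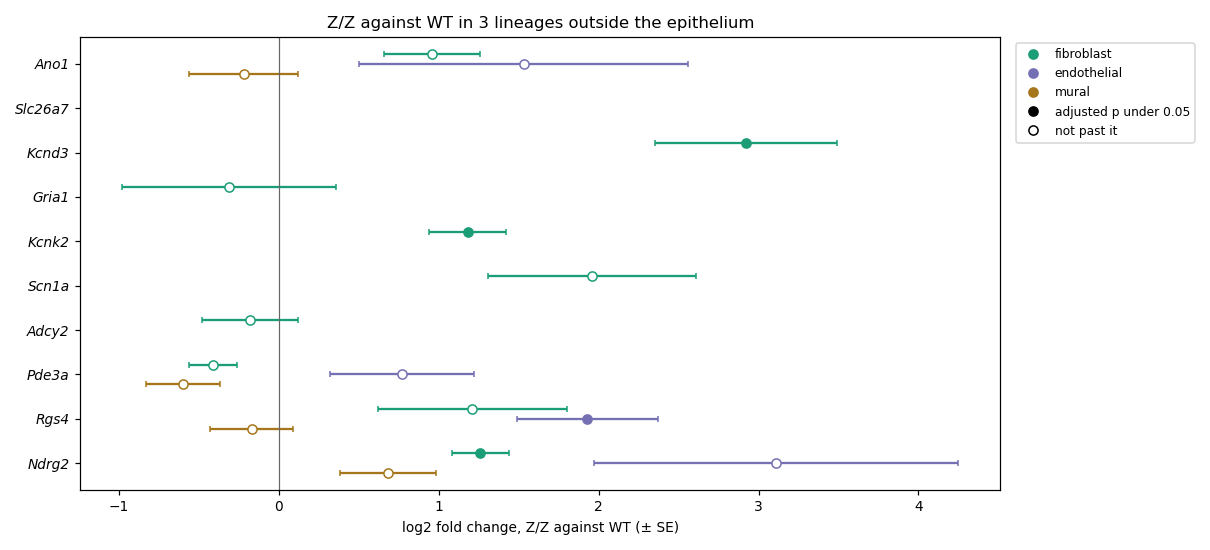
Log2 fold change of Z/Z against WT (points) with its standard error (bars) for each gene that could be tested in fibroblasts, endothelial cells and mural cells, from 2 libraries per group; filled points have an adjusted p under 0.05. Filled points are Kcnd3, Kcnk2 and Ndrg2 in fibroblasts and Rgs4 in endothelial cells.

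The fibroblast changes were spread unevenly over fibroblast classes, a split added after the data were seen. In medullary fibroblasts Kcnk2 had 53.6 and 35.8 CPM in WT and 151 and 139 CPM in Z/Z (log2 fold change 1.68, adjusted p = 0.00317, edgeR), while in capsular fibroblasts it was at most 10.1 CPM in any library (log2 fold change 0.20, adjusted p = 0.92). Kcnd3 in capsular fibroblasts went from 0 and 1.69 CPM to 10.9 and 10.2 CPM, but rested on 0 and 1 UMIs in WT. Pde3a fell in capsular fibroblasts, from 308 and 360 CPM to 151 and 179 CPM (log2 fold change -0.96, adjusted p = 0.0298, edgeR), and was 150 and 137 against 175 and 149 CPM in medullary fibroblasts. Ndrg2 was higher in Z/Z in all 3 classes, with 12.7 and 13.5 against 27.1 and 24.9 CPM in capsular, 42 and 34.3 against 107 and 98.5 CPM in medullary and 31.2 and 38.3 against 70 and 67.2 CPM in intermediate fibroblasts, and passed in the medullary class (adjusted p = 0.00426, edgeR). Different clusters made up these classes in the genotypes. Of the medullary cells, a cluster led by Csf2rb held 216 and 84 in WT but 7 and 9 in Z/Z, while clusters led by Cxcl10 and by Wdr95 held 9 and 5, and 12 and 9, in WT but 339 and 120, and 213 and 60, in Z/Z, and Kcnk2 was among the leading genes of the Wdr95-led cluster. Of the capsular cells, an Igfbp5-led cluster held 104 and 15 of the WT cells but 19 and 24 of the Z/Z cells, and a Kcnc2-led cluster held 47 and 14 of the former but 175 and 156 of the latter. The part of this shift in the values of Kcnk2, Pde3a and the other genes, and whether a change differed between classes, were not tested.

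**Figure D5:**
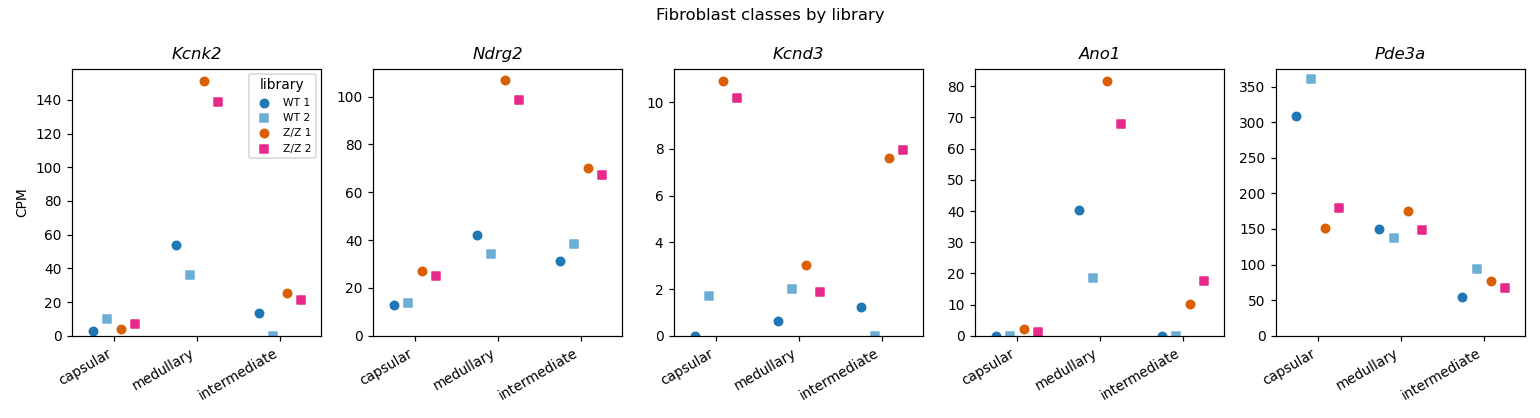
CPM of 5 of the genes in capsular, medullary and intermediate fibroblasts, with 1 point per library (WT blue, Z/Z orange and pink; circles replicate 1, squares replicate 2). Kcnk2 and Ano1 are highest in medullary fibroblasts of Z/Z, at 151 and 139 CPM and at 81.6 and 68 CPM, and Pde3a in capsular fibroblasts of WT, at 308 and 360 CPM.

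In endothelial cells 1 of the 4 genes tested was called, against 1.89% of 11357 genes called in either direction 0.933% called higher and 0.96% called lower. Rgs4 had 9.57 and 5.25 CPM in WT (9 and 1 UMIs) and 31.7 and 35.9 CPM in Z/Z, higher by 1.93 ± 0.44 on the log2 scale (adjusted p = 0.0455, edgeR). Of the 164 and 172 Rgs4 UMIs in Z/Z, 138 and 145 came from 24 and 19 cells of a small unnamed cluster with a median of 23556 and 20939 UMIs per cell, whose leading genes included Ccl11, Acta2 and Postn. Without that cluster, a setting added after the data were seen, the log2 fold change of Rgs4 was -0.26 (adjusted p = 0.885, edgeR). Ano1 (0, 26.3, 19.5 and 9.17 CPM in WT 1, WT 2, Z/Z 1 and Z/Z 2), Pde3a (22.3, 10.5, 43.6 and 24.2 CPM) and Ndrg2 (0, 5.25, 9.46 and 7.09 CPM) did not pass, with adjusted p of 0.455, 0.378 and 0.171 (edgeR). WT 1 and WT 2 held 110 and 25 endothelial cells. Empty-droplet RNA was estimated at 5.48% and 3.51% of endothelial UMIs in WT and 5% and 5.08% in Z/Z. Ndrg2 had 23.4 and 23.5 CPM in empty droplets of WT and 175 and 161 CPM in those of Z/Z. The part of free RNA in the Ndrg2 value was not separately tested.

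In mural cells none of 4 genes passed, where 3 of 8838 genes did (0.0339%, with 0.0226% higher and 0.0113% lower). Of the 4, 2 had an unadjusted p under 0.05 in edgeR's test, as did 785 of the 8838 genes. DESeq2 called 0 of the 4. Pde3a had 1507 and 1726 CPM in WT and 1083 and 1036 CPM in Z/Z (log2 fold change -0.60 ± 0.23, adjusted p = 0.489, edgeR). Ndrg2 had 162 and 102 CPM in WT and 202 and 255 CPM in Z/Z (log2 fold change 0.68 ± 0.30, adjusted p = 0.552, edgeR). Ano1 (245, 519, 319 and 292 CPM) and Rgs4 (558, 400, 421 and 451 CPM) overlapped between groups. WT 1 and WT 2 held 71 and 12 mural cells.

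Whether the genotype effect differed among the 3 lineages was tested in one model with terms for library and lineage. Rgs4 was called (F = 10.5, adjusted p = 0.0333, edgeR), 1 of 8 genes tested, against 1.64% of 13527 genes, and its log2 fold changes were 1.21 in fibroblasts, 1.93 in endothelial cells and -0.17 in mural cells. With DESeq2 its adjusted p was 0.146, and its endothelial value rested on the small cluster described above. Its fibroblast value rested on levels of at most 7.15 CPM. For Pde3a the edgeR test gave an adjusted p of 0.286, for Gria1 0.351, for Ano1 and Adcy2 0.538, for Ndrg2 0.558, and for Kcnk2 and Kcnd3 0.815 and 0.851.

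Among the 128 family genes, 81 could be tested in fibroblasts, of which 2 rose and 3 fell, against 3.08% of all genes called in either direction. Prkg2, a membrane cyclic GMP-dependent kinase, fell from 65.6 and 56 CPM to 13.4 and 10.4 CPM (log2 fold change -2.29, adjusted p = 6.11e-04, edgeR). Adcy5, another adenylyl cyclase, fell from 39 and 33.5 to 13.9 and 16.7 CPM (adjusted p = 0.015, edgeR), and Ndrg1 from 369 and 384 to 173 and 236 CPM (adjusted p = 0.0488, edgeR), opposite to Ndrg2. Pde11a rose from 2.65 and 1.76 to 12.6 and 8.37 CPM (adjusted p = 0.0146, edgeR) and Prkar1b, a regulatory subunit of protein kinase A, from 19.5 and 17.6 to 37 and 31 CPM (adjusted p = 0.0375, edgeR). In endothelial cells 2 of 54 passed, against 1.89% of all genes: Rgs5 rose from 72.3 and 63 to 187 and 182 CPM (adjusted p = 0.015, edgeR) and Pde4d fell from 474 and 625 to 179 and 252 CPM (adjusted p = 0.0174, edgeR). Rgs5 is also a mural marker, with 1605 and 1376 CPM in mural cells of Z/Z. The part of the small unnamed endothelial cluster with Acta2 in these values was not tested. In mural cells 0 of 51 passed, with 8 at an unadjusted p under 0.05 (edgeR), against 785 of all 8838 genes.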

How the data were processed

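Single-cell 3′ RNA sequencing (a v2 kit per the labels; the study's methods also name a v3 chip, and which one made these libraries is not settled) had been run on CD45-negative thymic cells, and the authors mapped reads with Cell Ranger (version 7.01 in the submitters' processing notes) to mm10. The deposited values are raw UMI counts per gene and barcode, introns included (exonic reads 49.0% to 51.4%, intronic 24.6% to 25.2%). Deposited run summaries gave saturation and mapping as percent of reads. Counts come from matrices of called cells, and matrices of all barcodes gave the RNA of empty droplets (barcodes with at most 100 UMIs).

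Cells with over 1000 genes and under 20% mitochondrial UMIs were kept, and the 3.9% highest Scrublet scores per library were removed (scanpy 1.11.5; its own threshold marked 2 to 5 cells per library). The 100 ribosomal and haemoglobin genes were left out. Clusters (Leiden, leidenalg 0.10.2, 3500 variable genes, 35 components, 45 for epithelium, 20 neighbours) were built without members, family or marker genes and named from markers. A cluster took a lineage at a score of at least 0.2 and a class at 0.5, with 3 markers in at least 20% of cells. The aaTEC2-like clusters also needed Epcam in under 25%, Vim in at least 20%, Pdgfra in under 20% and both Pax1 and Pax9 in at least 20% of cells. No batch correction was applied.

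UMIs were summed per library and lineage and tested with edgeR 4.0.16 (quasi-likelihood F test, TMM, filterByExpr, two-sided, Benjamini-Hochberg at 0.05) in R 4.3.3; SE is the log2 fold change over the root of F. CPM is the sum scaled to its own total. Shares were also taken after thinning cells to 2000 UMIs; limits at a count of 0 allow 3 counts and cover counting error only. The tests were checked on simulated counts. The genes, the family lists and the tests were chosen with earlier results of these data known. Named beyond the 10 genes were family genes past the threshold (at most 4 per direction and lineage), family genes with the most UMIs in aaTEC2-like cells, the 3 genes closest in pattern to each gene (sums of at least 20 cells, genes with at least 200 UMIs), and markers. Alternatives were DESeq2 1.42.0, no filter, a replicate block, each library left out, other cell filters, no doublet removal, shared barcodes left out, thinning, subtraction of empty-droplet RNA and other clusterings. Of the numbered replicates, same-numbered libraries were not labelled as paired.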

Additional observations from a re-analysis of the deposited data

Results flagged for a closer look

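The genotype effect differed among fibroblasts, endothelial cells and mural cells for 1 of the 8 genes of the set that were tested and for 5 of 83 family genes, against 1.64% of 13527 genes, by edgeR's 2-degree-of-freedom test of that difference with adjustment over all genes. For Rgs4 the adjusted p was 0.0333, with log2 fold changes of 1.21 in fibroblasts, 1.93 in endothelial cells and -0.17 in mural cells. For Rgs5, a pericyte-enriched relative of Rgs4, it was 2.51e-04 (0.80, 1.40 and -1.08 in the same order). For Prkg2 it was 0.00226 (-2.29 in fibroblasts and 0.30 in mural cells; not tested in endothelial cells alone). For Rgs6 it was 0.00702 (-1.94, 0.82 and -0.53), for Pde4d 0.0302 (-0.61, -1.32 and 0.17) and for Rapgef3 0.0307 (0.91, 0.33 and -1.03). The 12 and 71 mural cells of the WT libraries and the 25 and 110 endothelial cells stand behind these values. The endothelial values include the small unnamed cluster described above, without which the log2 fold change of Rgs4 was -0.26. In fibroblasts Rgs4 was at most 7.15 CPM in any library. The part of that cluster in the endothelial values of the family genes was not tested.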

How the results depend on the processing

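The number of genes called moved widely, with only 2 libraries per group. In fibroblasts 427 genes were called, 1344 without a filter on low counts, 212 without shared barcodes, 275 after thinning, 880 at 2 times the resolution, 272 and 175 in medullary and intermediate fibroblasts alone, and 0 to 517 with 1 library left out (0 without Z/Z 1 and without Z/Z 2). Of the 10 genes, 3 passed; 0 to 4 did with 1 library left out, 1 without shared barcodes and 1 in intermediate fibroblasts. In endothelial cells 215 genes became 721 without the filter, 96 with at least 500 detected genes, 41 without shared barcodes, 33 after thinning and 73 to 556 with 1 library left out; the 1 member called became 0 with DESeq2, at least 500 detected genes, under 10% mitochondrial UMIs, shared barcodes left out, thinning, subtraction of empty-droplet RNA and without the unnamed cluster, and 0 to 3 with 1 library left out. In mural cells 3 genes became 29 with DESeq2, 156 without the filter, 0 with at least 500 detected genes, 6 without doublet removal, 6 after thinning, 11 after subtraction of empty-droplet RNA, 7 at 0.5 times the resolution, 0 with a balanced neighbour graph and 13 to 438 with 1 library left out, when 0 to 1 member passed. In the interaction 222 genes became 491 without the filter, 76 after thinning, 97 after subtraction of empty-droplet RNA and 10 to 93 with 1 library left out; the 1 member called became 0 with DESeq2, any library left out, under 10% mitochondrial UMIs, shared barcodes left out, thinning, subtraction of empty-droplet RNA and 2 times the resolution, and 2 without doublet removal. The cause of these shifts was not tested.

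With the replicate number as a block, 420 genes were called in fibroblasts (4 members, Ano1 added at an adjusted p of 0.0327, edgeR), 362 in endothelial and 66 in mural cells. Same-numbered libraries did not deviate together (r = -0.03 in fibroblasts, 0.00 in endothelial and -0.03 in mural cells), so the numbers give no pairing.

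Several values changed sign. In fibroblasts the log2 fold change of Adcy2 became 0.17 without WT 1, 0.14 without Z/Z 1, 0.03 without shared barcodes, 0.21 after thinning and 0.11 at 2 times the resolution (with 1 library left out -0.56 to 0.17); that of Gria1 0.59 without WT 2, 0.21 without doublet removal and 0.20 without shared barcodes (-1.11 to 0.59); and that of Pde3a 0.19 in medullary and 0.20 in intermediate fibroblasts. In endothelial cells Ano1 became -0.72 without WT 1 (up to 8.71 with 1 library left out, where the remaining WT library had 0 UMIs) and Rgs4 -0.26 without the unnamed cluster. In mural cells Rgs4 became 0.26 without WT 1 and 0.27 after thinning (-0.36 to 0.26 with 1 library left out), and Ano1 0.32 without WT 2 and 0.23 after thinning (-0.63 to 0.32). The Rgs4 ratio of aaTEC2-like to other epithelial cells became 1.14 after thinning. The balanced neighbour graph gave no aaTEC2-like value, since those cells merged with the S100b-led cells. Ano1 in fibroblasts passed without the filter, with the replicate block, without WT 1, with the balanced graph and in medullary and intermediate fibroblasts, with log2 fold changes over all settings from 0.57 to 7.66, the last with 0 UMIs in WT and so no bound. Ndrg2 in fibroblasts ranged from 0.97 to 1.44 and Kcnd3 from 1.92 to 4.84 on the log2 scale over all settings.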
